A study of Schizosaccharomyces pombe with 15 samples.

Results

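Scr1 binding in molasses was compared between Wilmar-P, an industrial isolate of the fission yeast S. pombe used to ferment sugarcane molasses, and laboratory S. pombe. Overlapping peaks (1 bp or more) of the replicates of a strain were joined into regions, and a region was used if both replicates called it. This gave 851 regions in Wilmar-P and 3485 in the laboratory strain, 4336 in all, from 4 of the 6 Scr1 peak lists among the 15 samples of the series. The study, which also corrected its calls across replicates, reports more molasses sites in Wilmar-P than in the laboratory strain. Regions of the strains were matched if they shared at least 1 bp. A protein-coding gene was given a promoter region if the replicate 1 summit lay outside coding exons and within 1000 bp upstream of its annotated start. By this rule 144 genes kept a promoter region in both strains, 332 gained one in Wilmar-P and 23 lost one, of 5113 protein-coding genes.

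The laboratory strain was labelled 972h- Scr1-TAP with an h+ genotype that carries ura4-d18, leu1-32 and ade6-m216 beside scr1::TAP-KanMX6, and Wilmar-P was labelled Wilmar-P Scr1-TAP, h90 with scr1::TAP-KanMX6. The strains therefore differed in mating type and auxotrophies as well as in background, and the labels of the laboratory strain give both h- and h+. Both carried Scr1 fused to the tandem affinity purification (TAP) tag, which was precipitated through its protein A part, and both were moved from glucose medium to molasses for 4 h. Each group was 2 biological replicates, and no list from an untagged strain was analysed here. Reads of both strains were aligned to the laboratory genome, in which Wilmar-P sequence that is missing from the laboratory strain has no place.

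Scr1 is a zinc finger protein of the Mig1 type and acts as a repressor in carbon catabolite repression, the programme by which glucose keeps genes for other carbon sources silent. It recruits the Tup11, Tup12 and Ssn6 co-repressors, and it leaves the nucleus when glucose becomes scarce. Known genes under this control in fission yeast include inv1, which encodes the secreted invertase that splits sucrose, and fbp1 of gluconeogenesis. Mig1-type proteins bind short GC-rich boxes that end in a run of G.

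Such boxes lay close to the summits of a minority of genes, 42 of 144 kept (29.2%) and 52 of 332 gained (15.7%). The words searched were CCGGGG as well as CTGGGG, together with GCGGGG as well as GTGGGG, on either strand within 100 bp of the replicate 1 summit, and the lines that follow show the word nearest to the summit in capitals with its flanks, read 5′ to 3′ on the strand of the word from the RefSeq sequence of the laboratory genome. They were chosen among genes with such a word. They show 4 genes that kept a region (gld1, adh1, atf1 and ght5) and 3 that gained one (pho7, rst2 and ght7). No word was found at several of the best-ranked regions named below, among them those of ght8, tdh1, ecm33, gas1 and gaf1.
gld1: tgctgaaaatCTGGGGaaatatatac
adh1: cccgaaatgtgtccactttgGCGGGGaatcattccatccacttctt
atf1: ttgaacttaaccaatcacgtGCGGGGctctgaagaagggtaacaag
ght5: taccttggatGCGGGGttaagtgtat
pho7: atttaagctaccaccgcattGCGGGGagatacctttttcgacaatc
rst2: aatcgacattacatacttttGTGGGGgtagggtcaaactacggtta
ght7: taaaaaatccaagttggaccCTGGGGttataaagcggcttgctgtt
The gld1 stretch is on chromosome I from 2177217 to 2177242 on the plus strand, and its word lay 49 bp from the summit. All these distances run from the middle of the word to the summit, rounded down. The adh1 stretch is on chromosome III from 1591070 to 1591115 on the plus strand, 37 bp from the summit. The atf1 stretch is on chromosome II from 1546101 to 1546146 on the minus strand, 11 bp from the summit. The gld1 and ght5 stretches touch an untranslated exon and are therefore shown with shorter flanks. The ght5 stretch is on chromosome III from 211550 to 211575 on the minus strand, 79 bp from the summit. The pho7 stretch is on chromosome II from 1348078 to 1348123 on the plus strand. The summit lay inside its word, 1 bp from the middle, the nearest of the 7. The rst2 stretch is on chromosome I from 1309530 to 1309575 and the ght7 stretch on chromosome II from 40622 to 40667, both on the minus strand, with words 54 bp and 60 bp from the summits. A word is a match of letters and was not tested as a binding site.

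The lists differed in size and in range before any matching. Over the 3 chromosomes, 4239 and 4479 peaks (replicates 1 and 2) were called in the laboratory strain, and 961 and 1073 in Wilmar-P. The highest enrichment over the local background, a ratio computed by MACS2, reached 113 and 84.4 for Wilmar-P, and 31.3 and 25.2 for the laboratory strain. Summits in coding exons made up 91.1% and 91.9% of the laboratory peaks and 25.9% and 34.9% of the Wilmar-P peaks. Coding exons make up 57.1% of the 3 chromosomes. The groups did not overlap in this share, and their means differed by 61.1 percentage points (exact permutation test over the 4 lists, two-sided, p = 0.33, the smallest that 2 lists against 2 can give). Restricted to peaks enriched 2.5-fold or more, the difference was 12.9 points, since 21.9% and 24.4% of the laboratory peaks that were left had coding summits. Depth is unknown, as the lists give no number of reads.

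Of the 851 Wilmar-P regions, 397 matched a laboratory region and 454 did not. Of those 454, 418 overlapped no peak of either laboratory list and 36 overlapped a peak of 1 list. In the other direction 418 laboratory regions were matched and 3067 were not, of which 2924 overlapped no peak of either Wilmar-P list. The Wilmar-P-only regions lay mostly before genes. Their replicate 1 summits were upstream of a protein-coding gene in 278 cases (61.2%), at a median of 169.5 bp from the start, and in coding exons in 35 (7.71%). The laboratory-only regions lay mostly inside genes, with 2966 coding summits (96.7%) and 18 upstream ones. Shared regions stood between, with 169 coding (42.6%) and 141 upstream summits in Wilmar-P.

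**Figure D1:**
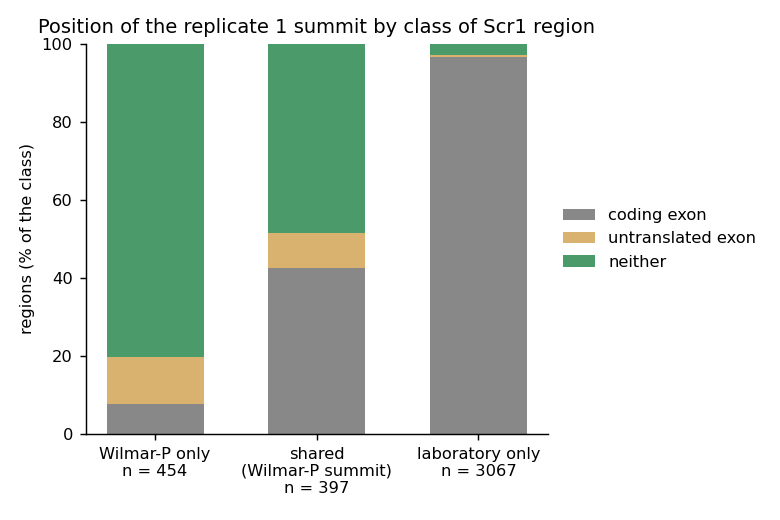
Share of regions (percent of the class) whose replicate 1 summit lay in a coding exon, an untranslated exon or neither, for the 454 Wilmar-P-only, the 397 shared and the 3067 laboratory-only regions. Coding exons held 7.71%, 42.6% and 96.7% of the summits, and they make up 57.1% of chromosomes I, II and III.

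The coding summits of laboratory-only regions fell in 2246 protein-coding genes (43.9%), and 516 of these genes held more than 1. They sat in the body of the gene, at a median of 51.6% of its length from the start, with 7.81% in the first quintile of the gene and 8.96% in the last. Their enrichment was low, as the medians over all laboratory-only regions were 1.77 and 1.83. Transcription factor genes held such a summit in 67.5% of cases and transporter genes in 65.7%, while genes of ribosome biogenesis did so in 33.9% and genes of cytosolic ribosomal proteins in 40.5%. Of the 332 gained genes 192 (57.8%) also held a laboratory-only summit in their own coding exons, as did 71 of the kept genes (49.3%). The part of gene length in these shares was not tested.

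The best regions of either list were shared. In the order of mean rank by p, 98 of the first 100 Wilmar-P regions and 77 of the next 100 matched a laboratory region. The matched number fell to 14 at places 401 to 500 and then rose again to 67 at places 701 to 800. This rise came with coding summits, because the matched regions with a summit outside coding exons fell without return, from 89 in the first 100 to 5 at places 701 to 800. In the laboratory order, 98.0% of the first 50 regions were matched, 82.0% of those at places 101 to 200, 36.5% at places 201 to 400 and 3.02% from place 1601 on.

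**Figure D2:**
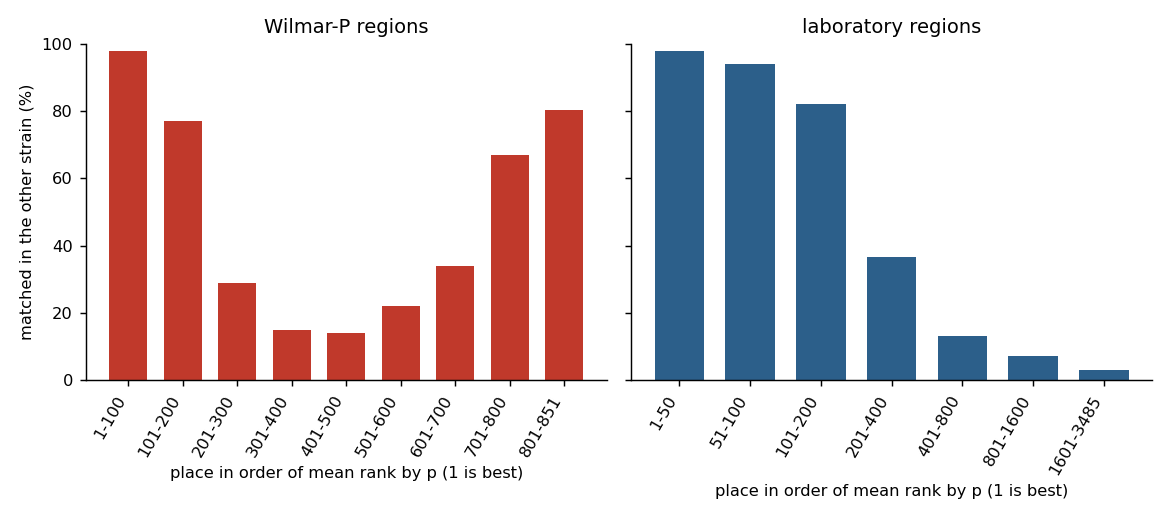
Percent of regions matched in the other strain, by place in the order of mean rank by p, for Wilmar-P regions (left, bins of 100) and laboratory regions (right, bins of growing width). The first 100 Wilmar-P regions were matched in 98 cases, and the laboratory share fell to 3.02% in the last bin.

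At the shared regions, enrichment was mostly higher in the Wilmar-P lists. Both Wilmar-P values lay above both laboratory values at 287 of 397 regions (72.3%) and below both at 44 (11.1%), and the values overlapped at 66. The median ratio of the mean enrichment in Wilmar-P to that in the laboratory strain was 2.02, with a range of 0.428 to 13.2. This ratio differed with the position of the summit. At the 141 regions upstream of a gene the median ratio was 4.01, 133 regions were higher in Wilmar-P and 3 were lower. At the 169 regions with a coding summit it was 1.09, with 77 higher, 35 lower and 57 overlapping. Summits also coincided more closely before genes, where 75.2% of the replicate 1 summits of the strains lay within 50 bp of each other, against 27.8% in coding exons. Because the ratio was above 1 at most shared promoters, each value given for a gene is to be read beside the median of 4.01.

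**Figure D3:**
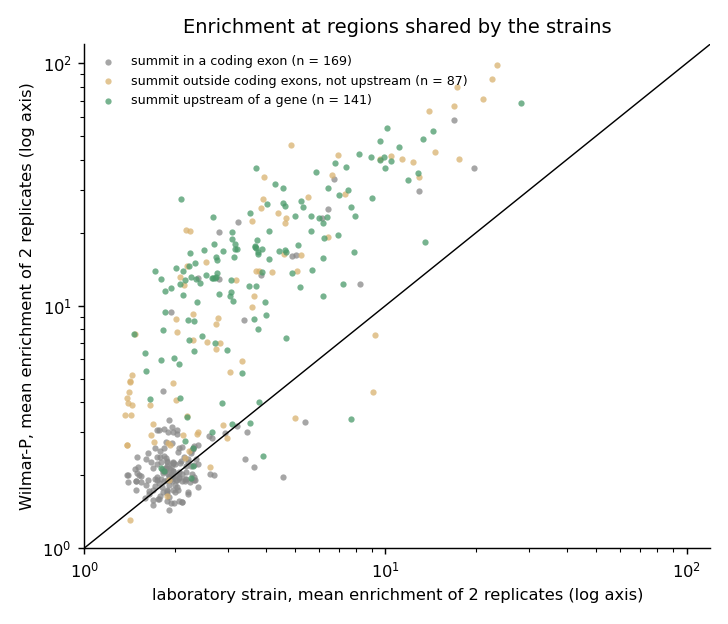
Mean enrichment of the 2 replicates in the laboratory strain (horizontal, log axis) and in Wilmar-P (vertical, log axis) at the 397 shared regions, coloured by the position of the Wilmar-P summit, with the line of equal enrichment. Regions upstream of genes lie above the line in most cases (median ratio 4.01) and coding regions lie around it (median ratio 1.09).

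The scale of the lists bears on the Wilmar-P-only regions. Outside coding exons there were 419 of them, and the highest of their mean enrichments was 19.6. The lowest enrichment in a laboratory list was 1.23 and 1.27. When the mean enrichment of each region was divided by 3.66, the median ratio at shared regions outside coding exons, 279 of the 419 (66.6%) fell below 1.27, and the other 140 did not. Below 2.33 fell 383 (91.4%). That value is the median enrichment of laboratory replicate 1 peaks with a summit outside coding exons, the lower of the replicates. How many of the 419 would be called in a laboratory list of the scale of Wilmar-P was not tested.

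The 10 shared regions with the best mean rank over the 4 lists were led by a region 1516 bp before SPCC320.03, annotated as a transcription factor (chromosome III, 170549 to 171703). Its enrichment was 113 and 84.4 in Wilmar-P and 26.1 and 21.0 in the laboratory strain, and it ranked 1 and 1 and then 2 and 2. The region before ght8, a hexose transporter gene, had 77.1 and 60.3 in Wilmar-P and 31.3 and 25.2 in the laboratory strain, where it was the best of both lists. The next was a region 1526 bp before plb1, a lysophospholipase gene, with 99.1 and 73.3 against 24.2 and 20.8. The strains did not overlap at any of the 10, and the ratio at them was between 1.88 and 4.63. Only 3 of the 10 had a summit within 1000 bp upstream of a gene (ght8, tdh1 and SPCC417.16). The product of SPCC417.16 is annotated only as an NADH:ubiquinone reductase complex subunit. The others lay 1516 to 2697 bp before the next start (SPCC320.03, plb1, SPCC794.04C and SPBC36.02C, the last 2 annotated as transporters), in untranslated exons of mug114 and SPAC56F8.13, or in the coding exon of SPAC17A2.11. The summit in mug114 was 1675 bp before hxk2, which encodes hexokinase 2. At 7 of the 10 the summit lay within an annotated non-coding RNA gene. The 7 regions other than those of ght8, tdh1 and SPCC417.16 count for no gene under the limit of 1000 bp.

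Of the 228 shared regions outside coding exons, 87 had no start within 1000 bp downstream, and 61 of these had one within 3000 bp. Annotated non-coding RNA genes covered the summit of 62 of the 87 and ribosomal RNA genes that of 8. Of the Wilmar-P-only regions outside coding exons, 141 had no such start, 95 of them had one within 3000 bp, and non-coding RNA genes covered 85.

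**Figure D4:**
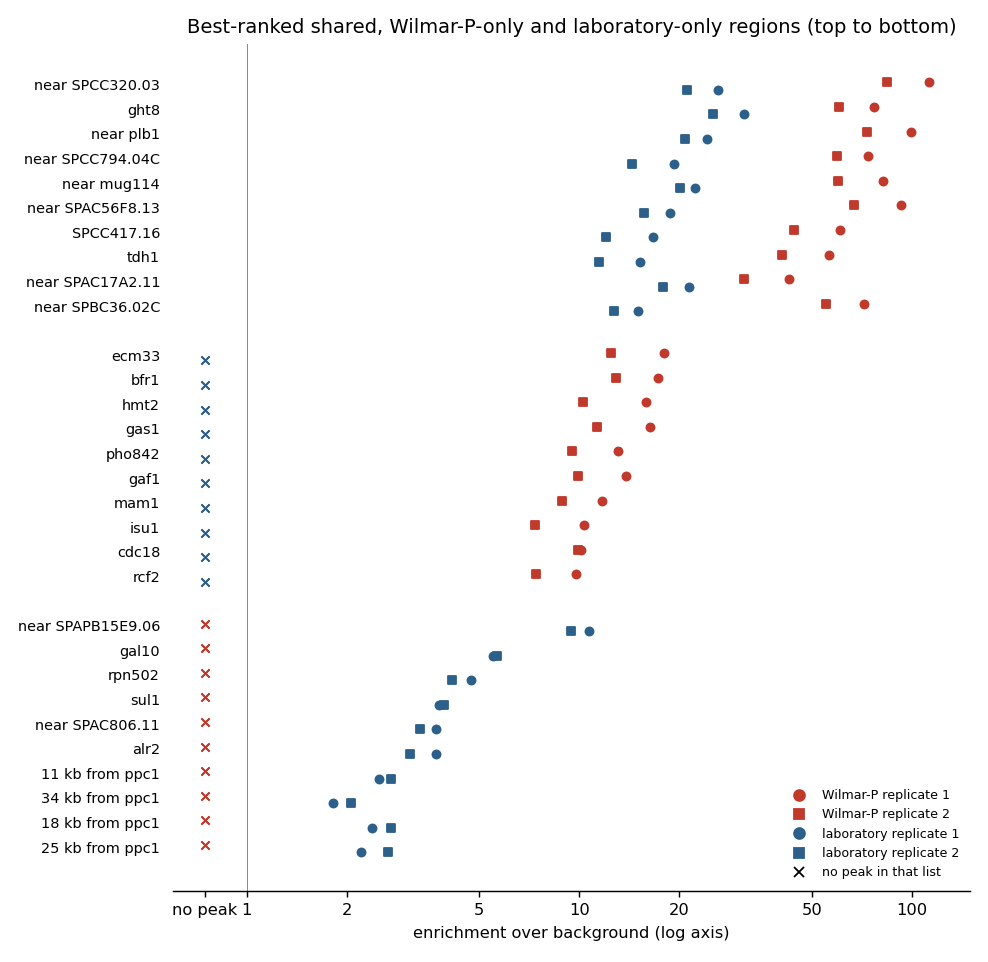
Enrichment over background (log axis) in each of the 4 lists for the 10 best-ranked shared regions, the 10 best Wilmar-P-only regions upstream of a gene and the 10 best laboratory-only regions outside coding exons. Circles are replicate 1, squares replicate 2, and crosses mark lists with no peak at the region. The best shared region had 113 and 84.4 in Wilmar-P, the best Wilmar-P-only one upstream of a gene and without a peak in either laboratory list (ecm33) 18.0 and 12.5, and the best laboratory-only one outside coding exons 10.7 and 9.44.

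Among all 5113 protein-coding genes, 476 (9.31%) had a Wilmar-P promoter region and 167 (3.27%) a laboratory one. The kept genes were 2.82% of all genes, the gained ones 6.49% and the lost ones 0.45%. The 332 gained genes lay behind 280 regions, 50 of which stood before more than 1 gene. Their summits were at a median of 201.5 bp upstream of the start, and those of the kept genes at 269.5 bp. At 282 of the gained genes the region overlapped no laboratory peak and at 29 it overlapped a peak of 1 laboratory list. The other 21 had a laboratory region at the same place with its summit elsewhere, in a coding exon in 15 cases. The first of these, SPCC1529.01, a transporter gene with 54.1 and 41.6 in Wilmar-P, had a laboratory region of 9.91 and 9.31 whose summit lay 1011 bp upstream, just outside the limit, and 953 bp upstream in Wilmar-P. It counts as gained by the rule alone. Low in the order the histone genes hht2, hhf2, hht3, hta1 and htb1 were of the same kind, with replicate 1 laboratory summits in coding or untranslated exons.

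Of the 144 kept genes 143 had matched regions, and 82.6% had summits of the strains within 50 bp of each other. The exception was git3, which encodes the glucose receptor of the cAMP pathway. Its Wilmar-P summit lay 111 bp upstream and its laboratory summit 713 bp upstream, in separate regions. The gene is not counted as one where Scr1 sat at the same place.

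The gene lists used from here on were chosen with earlier results of these data known. Their shares therefore describe the lists and are not independent evidence. Most of the genes for sugar uptake and breakdown with a Wilmar-P promoter region were kept, whereas over all genes 2.82% were kept and 6.49% gained. Of the 8 hexose transporter genes ght2, ght3, ght5 and ght8 were kept, ght7 was gained, and ght1, ght4 and ght6 had a promoter region in neither strain. The ght3 promoter, whose product is annotated as a gluconate symporter, had 41.6 and 32.1 in Wilmar-P and 4.02 and 3.40 in the laboratory strain, a ratio of 9.93 and the second largest among shared promoters. The ght2 promoter, of a glucose and fructose symporter gene, had 30.1 and 22.5 against 4.06 and 4.03. The strains did not overlap at either gene. The ght5 promoter, of the high-affinity glucose transporter gene, had 15.7 and 11.7 in Wilmar-P and 3.13 in laboratory replicate 1. In laboratory replicate 2 the summit of the matching peak did not lie outside coding exons and within 1000 bp upstream. The ght5 gene lies in a stretch of chromosome III that the study describes as duplicated in Wilmar-P, and the part of copy number in its enrichment was not tested. The ght7 promoter had 4.53 and 3.11 in Wilmar-P and no laboratory peak.

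Of 19 genes of glycolysis and fermentation 10 were kept and 3 gained, which is 68.4% with a Wilmar-P promoter region against 9.31% of all genes. The kept genes ran along the pathway from pfk1 (phosphofructokinase) through fba1, tpi1, tdh1, pgk1, gpm1 and eno101 to pyk1, adh1 and adh4. The tdh1 promoter, of a glyceraldehyde-3-phosphate dehydrogenase gene, had 56.5 and 40.8 in Wilmar-P and 15.2 and 11.5 in the laboratory strain. The eno101 promoter, of an enolase gene, had 48.2 and 35.8 against 9.13 and 7.19, and the pgk1 promoter, of the phosphoglycerate kinase gene, had 45.0 and 32.5 against 7.34 and 6.23. The adh1 promoter, of the main alcohol dehydrogenase gene, had 43.9 and 35.0 against 11.5 and 9.33. The strains did not overlap at any of these promoters. The tpi1 region, of the triosephosphate isomerase gene, had the largest ratio of all shared promoters, 13.2, with 31.0 and 24.2 in Wilmar-P and 2.06 and 2.11 in the laboratory strain. Its laboratory value is that of a peak about 1 kb away, with the replicate 1 summits at 939242 and 940267 on chromosome III, and the laboratory peak upstream of the gene had 1.47 and 1.69. The gained genes were gpd3, hxk1 and pdc201, the second glyceraldehyde-3-phosphate dehydrogenase gene, a hexokinase gene and a pyruvate decarboxylase gene, with enrichments between 2.33 and 6.57.

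Of 9 genes for the use of sucrose, maltose and galactose, inv1 was kept, gal1 and gal10 were lost and none was gained. The share with a Wilmar-P promoter region, 11.1%, was near the 9.31% of all genes. At inv1 the summits lay 204 and 206 bp upstream in Wilmar-P and the laboratory strain. Its enrichment was 12.8 and 9.05 in Wilmar-P and 6.45 and 5.98 in the laboratory strain, so that the lists did not overlap. The ratio at inv1 is below the median of 4.01 at shared promoters. No promoter region was found at mal1, agl1 or sut1 in either strain. Among 11 genes of gluconeogenesis and glycerol use gut2, gld1, gpd1 and mae2 were kept (36.4% with a Wilmar-P promoter region) and dak2 was lost. At dak2 a Wilmar-P region of 3.27 and 3.35 was still there, with its summit in the coding exon. The study places dak2 in a locus of copy number variation, and the part of this was not tested. The gld1 promoter, of the glycerol dehydrogenase gene, had 27.6 and 19.5 in Wilmar-P and 8.04 and 7.76 in the laboratory strain. No promoter region was found at fbp1 in either strain.

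The regulators of glucose repression themselves were in part bound. The scr1 promoter was kept, with 40.1 and 30.3 in Wilmar-P and 13.7 and 11.9 in the laboratory strain, and so was the ssn6 promoter, of the co-repressor gene, with 21.7 and 14.0 against 5.26 and 4.97. The groups did not overlap at either. The rst2 promoter, of the activator that opposes Scr1 at fbp1, was gained, with 8.13 and 5.93 in Wilmar-P and no laboratory peak. The gene of the transcription factor Sak1, sak1, was gained as well. Of the 11 listed regulators 36.4% had a Wilmar-P promoter region, and so had 36.4% of 11 genes of the cAMP pathway, against 9.31% of all genes. In the cAMP pathway, which signals glucose through protein kinase A, cgs2 and git3 were kept and cgs1 and git10 (listed as hsp90) were gained. The cgs2 promoter, of the phosphodiesterase gene, had 18.1 and 13.0 in Wilmar-P against 4.33 and 3.88, and the cgs1 promoter, of the regulatory subunit of protein kinase A, had 7.90 and 6.40 and no laboratory peak.

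Stress genes showed both patterns. In the pathway of the stress-activated kinase Sty1, 1 of 19 genes was kept and 4 were gained, which is 26.3% with a Wilmar-P promoter region against 9.31% of all genes. The kept gene was atf1, which encodes the transcription factor downstream of Sty1, with 18.7 and 15.1 in Wilmar-P and 2.71 and 2.30 in the laboratory strain. The gained genes were srk1, a kinase gene with 14.6 and 10.6 and a peak of 2.06 in 1 laboratory list, and prr1, pap1 and mpr1, with no laboratory peak at any of the last 3. Among 18 stress effector genes 5 were kept and 2 gained (38.9%). At tps1, which encodes trehalose phosphate synthase, the values were 19.7 and 13.4 in Wilmar-P and 2.41 and 2.07 in the laboratory strain, a ratio of 7.38. At cta3, of a cation ATPase, they were 35.7 and 27.8 against 4.51 and 4.12. The strains did not overlap at either gene. The gained effectors were zwf1 and sod1.

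The Wilmar-P-only regions with the best ranks and no laboratory peak lay before genes of several functions. The first was ecm33, a cell surface protein gene, with 18.0 and 12.5 (chromosome I, 1571555 to 1572420, summit 167 bp upstream). It was followed by a second region at bfr1, the gene of a brefeldin A efflux pump, with 17.3 and 12.9 (chromosome III, 715173 to 715667, summit 90 bp upstream). Then came hmt2 (sulfide-quinone oxidoreductase, 15.9 and 10.3), gas1 (a glucanosyltransferase of the cell wall, 16.3 and 11.3) and pho842 (a phosphate transporter, 13.1 and 9.54). The last of the 10 were gaf1 (a GATA factor of nitrogen sensing, 13.8 and 9.90), mam1 (the exporter of the M-factor pheromone, 11.7 and 8.87), isu1 (iron-sulfur cluster assembly, 10.4 and 7.34), cdc18 (loading of the replicative helicase, 10.1 and 9.90) and rcf2 (cytochrome c oxidase, 9.79 and 7.43). These values are below those of the best shared regions, and the 10 ranked between 124 and 224 in their lists. At 4 of the 10 (ecm33, gas1, pho842 and cdc18) a peak was called in both glucose lists of Wilmar-P.

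At bfr1 the gene itself was kept, through a region 906 bp upstream with 30.1 and 22.9 in Wilmar-P and 5.13 and 4.02 in the laboratory strain. The region 90 bp upstream was in addition to it. Such a further Wilmar-P region beside a shared one was found at 7 of the 144 kept genes (4.86%). The others were SPAC26H5.09C, gpd1 (glycerol-3-phosphate dehydrogenase), exg1 (a glucanase), zfs1, amt1 (an ammonium transporter) and eis1, where the further region had between 2.22 and 5.32.

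Transporter, efflux and cell wall genes were both kept and gained. Over all genes 2.82% were kept and 6.49% gained. Of 178 genes annotated as transporters 16 were kept and 28 gained, 24.7% with a Wilmar-P promoter region against 9.31% of all genes. Of 14 drug efflux genes, bfr1 was kept and pmd1, abc3, fnx2, mfs1 and mfs3 were gained, each with no laboratory peak and with enrichments of 3.32 to 8.33. Of 21 genes of cell separation and the cell wall 7 were gained and 2 kept. Among the gained genes were adg1, adg2, ags1 (alpha-glucan synthase), gas1, ecm33 and psu1. At adg1 the values were 22.0 and 16.5 in Wilmar-P, with 2.23 in laboratory replicate 1 and no peak in replicate 2, and at ags1 they were 10.1 and 7.62 with no laboratory peak. The kept genes were exg1, with 27.0 and 19.5 against 2.98 and 2.36, and gas2. Of 16 flocculation genes pfl2 and cbf12 were kept, and gsf2, pfl3, pfl5 and pfl8 were gained, led by gsf2 with 5.41 and 4.25.

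Genes of metal, phosphate and nitrogen uptake differed in how many were kept and how many gained, where 2.82% of all genes were kept and 6.49% gained. Of 18 genes of iron and copper uptake 6 were kept and 6 gained. The kept fio1 and fip1, a ferroxidase and an iron permease gene that share a divergent promoter, had 18.9 and 13.7 in Wilmar-P and 3.97 and 3.56 in the laboratory strain. The gained str3, a siderophore transporter gene, had 10.8 and 7.86 and a peak of 1 laboratory list at the region, and the gained fep1 and php4, the repressor genes of iron uptake and iron use, had 2.46 to 3.74. Of 13 phosphate and zinc genes 5 were kept, among them pho1 (acid phosphatase), zrt1 (zinc transport) and loz1 (the zinc-responsive repressor), and pho7 and pho842 were gained. The pho1 promoter had 14.3 and 17.3 against 6.70 and 5.72. Of 13 nitrogen and amino acid uptake genes ptr2 and amt1 were kept and gaf1, isp5, isp7, put4 and cat1 were gained. The ptr2 promoter, of a peptide transporter gene, had 45.7 and 34.0 against 10.4 and 8.86. The put4 and cat1 genes share 1 region of only 1.96 and 2.04.

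Of 29 genes of mating and entry into meiosis 2 were kept and 8 gained, which is 34.5% with a Wilmar-P promoter region against 9.31% of all genes. The gained ones included mei2, an RNA-binding protein required for meiosis, with 6.97 and 5.90, mei3 with 4.96 and 3.64, and mam1. The clr5 promoter had 7.46 and 5.29 in Wilmar-P and 1.58 in laboratory replicate 2 only. No promoter region was found at ste11, the gene of the main activator of mating. Of 10 transcription factor genes that the study names, 6 were gained (among them gaf1, pho7, prr1, rst2 and sre2) and 2 kept (esc1 and loz1). The study names them among genes that Scr1 bound in Wilmar-P only, whereas esc1 and loz1 had a laboratory promoter region by the rule used here. That list was chosen by the study on these samples and is not independent evidence of a gain. Over all 120 genes annotated as transcription factors, 8 were kept and 14 gained (18.3% with a Wilmar-P promoter region). Genes of protein synthesis were few, with 3 of 131 cytosolic ribosomal protein genes (2.29%) and 0 of 56 ribosome biogenesis genes.

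**Figure D5:**
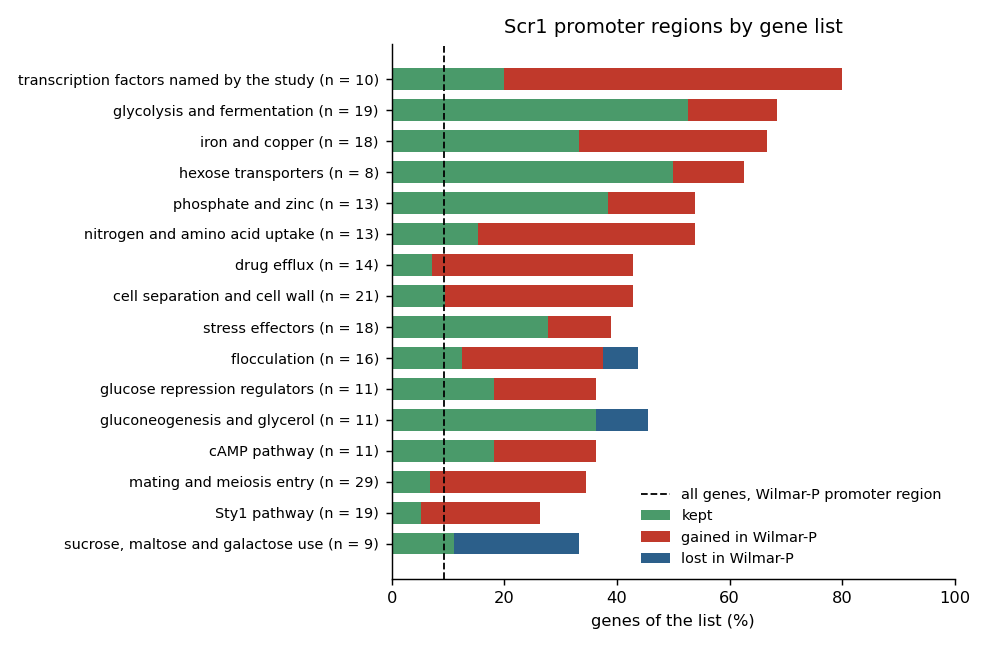
Percent of the genes of 16 lists with a promoter region kept in both strains, gained in Wilmar-P or lost in Wilmar-P, in order of the share with a Wilmar-P region, with the number of genes of each list. The dashed line is the share of all genes with a Wilmar-P promoter region, 9.31%. The lists were chosen with earlier results of these data known. Glycolysis and fermentation reached 68.4%, and the lists with the most lost genes were sucrose, maltose and galactose use (2) and flocculation and gluconeogenesis (1 each). The lost genes of flocculation and gluconeogenesis, gsf1 and dak2, still had a Wilmar-P region with its summit elsewhere.

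At 4 of the 23 lost genes a Wilmar-P region was still there, with its summit elsewhere. At gsf1, a gene of the flocculation list, the Wilmar-P region had 44.3 and 34.1 against 9.64 and 8.45 in the laboratory strain, and its summits lay 1003 and 994 bp upstream, so that replicate 1 fell just outside the limit. At SPAC2H10.01 and usp102 the Wilmar-P summits lay 1111 and 1184 bp upstream of the start, and at dak2 the summit lay in the coding exon. Of the other 19 genes, 18 had no Wilmar-P peak at the region and 1 had a peak in 1 list. The best-ranked was the promoter shared by gal10 and gal1, which encode the epimerase and the galactokinase of galactose use (chromosome II, 4487525 to 4487908). It had 5.49 and 5.66 in the laboratory strain, ranks 72 and 60, and no peak in either Wilmar-P molasses list. The study describes the galactose gene cluster as missing from the Wilmar genome, which was not tested here. The next were rpn502, a proteasome subunit gene, with 4.74 and 4.14, and alr2, of alanine racemase, with 3.71 and 3.09. The outer 100 kb of chromosome II held 9 of the 23 lost genes, 1 of the 144 kept and 2 of the 332 gained. The other chromosomes differed from this. On chromosome I the outer 100 kb held 3 lost, 3 kept and 10 gained genes, and on chromosome III 0 lost, 3 kept and 13 gained. The share of all genes that lie in these stretches is not given here. How many of the 9 lost genes of chromosome II are absent from Wilmar-P was not tested.

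The laboratory-only regions outside coding exons numbered 101, of which only 18 lay upstream of a gene. The best of them lay in an untranslated exon of SPAPB15E9.06, with 10.7 and 9.44 and ranks 29 and 25, and had no Wilmar-P peak. It was followed by the gal10 and rpn502 promoters, a region 925 bp before sul1 and one near SPAC806.11. Both sul1, a sulfate transporter gene, and SPAC806.11 had another region upstream that the strains shared, so they count as kept. Of the 101, 42 lay more than 5 kb from any protein-coding gene, 27 on chromosome III, 10 on chromosome II and 5 on chromosome I, in 1 cluster per chromosome at the centromere. Their enrichments were low, between 1.47 and 2.77, and 4 of the 10 best laboratory-only regions were among them.

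A few shared promoters went the other way. The smallest ratio, 0.444, was at SPAC26H5.09C, an oxidoreductase gene, with 3.48 and 3.37 in Wilmar-P and 8.39 and 7.03 in the laboratory strain, and the next, 0.613, at cbm1 with 2.52 and 2.29 against 4.02 and 3.82. The groups did not overlap at either. Of the remaining 3 of the 5 smallest, pre10 (0.866) did not overlap either, and SPAC806.11 (0.924) and dhm1 (0.955) did. Beside tpi1 and ght3, the largest ratios were at exg1 (8.72), SPCC1739.08C, a dehydrogenase gene (8.09), and tps1 (7.38).

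The Mig1-type words were read against the whole genome. Within 100 bp of the replicate 1 summit they occurred at 60 of the 228 shared regions outside coding exons (26.3%) and at 62 of the 419 Wilmar-P-only ones (14.8%). Of all windows of the same 201 bp, 4.01% of those centred outside coding exons and 6.40% of those centred inside held such a word. The laboratory-only regions had it in 5.80% of cases in coding exons and in 3 of 101 cases outside. The summits of replicate 2 gave 25.4%, 15.3%, 6.10% and 6 of 101. By gene, 42 of the 144 kept (29.2%), 52 of the 332 gained (15.7%) and 2 of the 23 lost had a word at the promoter region nearest to the start. Base composition differed with the class, with 42.9% GC at shared and 39.4% at Wilmar-P-only summits outside coding exons, against 32.0% in all such windows, and its part in these shares was not tested.

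Other words were present at the same summits. TGACGT, the site of the Atf1 type, was found on either strand at 23.2% of the shared and 9.79% of the Wilmar-P-only regions outside coding exons, against 3.10% of windows outside coding exons. CCAAT was found at 47.8% and 30.5%, against 30.9%, so that the Wilmar-P-only share was close to that of all windows. Of the laboratory-only regions outside coding exons 1 of 101 held TGACGT.

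Shared regions were seen in glucose more often than Wilmar-P-only ones. A region called in both glucose replicates of Wilmar-P overlapped 159 of the 397 shared regions (40.1%) and 26 of the 454 Wilmar-P-only ones (5.73%). No glucose peak lay at 161 of the shared regions. The match also fell with rank, from 87 of the first 100 Wilmar-P regions to 7 at places 301 to 400. Both glucose lists had a peak at the promoters of ght8, tdh1, scr1, inv1 and atf1, and neither had one at ght7, gaf1, hmt2 or mam1. Among Wilmar-P-only regions, those of ecm33, gas1, pho842 and cdc18 had a peak in both. The glucose lists were shorter, with 386 and 228 peaks, and a peak below their threshold was not seen. A tRNA gene lay within 200 bp of the summit at 21 of the 454 Wilmar-P-only regions, 2 of the 397 shared and 0 of the 3067 laboratory-only ones. Of the last class 96.7% had coding summits. The 3 chromosomes hold 171 tRNA genes, and the share of the genome that near to one is not given here.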

How the data were processed

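Chromatin immunoprecipitation and sequencing (ChIP-seq) of TAP-tagged Scr1 was analysed from the deposited peak lists. Per the methods and the submitters' processing notes, adapters were trimmed, reads were aligned to the S. pombe genome (ASM294v2) with Bowtie2 2.3.1, and peaks were called by the authors with MACS2 2.1.1 for each replicate against an input. The paper's methods add an irreproducible discovery rate correction across replicates. No such step was applied here, where a region needed only a peak in both lists of a strain. Libraries were sequenced single-end or paired-end, and which was which is not given in the sources used here. For every peak the deposited lists hold a fold enrichment (a ratio) and the −log10 of its p-value and q-value. Each list ends near a q-value that MACS2 sets, with a smallest −log10 q of 2.00 to 2.08 in the 4 lists. The growth text of the labels names other sugars than molasses, and the treatment label was followed.

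The annotation and sequence were those of a later RefSeq release of the assembly, with the same lengths of chromosomes I, II and III (5579133, 4539804 and 2452883 bp). Coordinates are 1-based. The summit is the start plus the offset of the list. The best peak of a region by p stood for its replicate. Ranks run within a list.

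The genes and regions named follow a fixed rule: the 10 best-ranked shared regions, the 10 best Wilmar-P-only regions upstream of a gene and the 10 best laboratory-only regions outside coding exons without a peak in the other strain, the 5 largest and 5 smallest ratios at shared promoters, and members of 16 gene lists in order of rank. The members and lists were chosen with earlier results of these data known. Genes of a list with the same locus count once. Transcription factors, transporters and other classes were taken from the words of the annotated product.

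No test across regions was made. The strains were compared by an exact permutation test over the 4 lists for 1 value only, and other differences are given as non-overlap of the replicates. Merging, matching and promoter assignment were tested on simulated lists. Alternatives are in the closing section. Peaks on the unplaced and MTR sequences entered no comparison. Python 3.11.15, numpy 2.4.6 and matplotlib 3.10.9 were used. Values of 1 listed gene are not reported here.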

Additional observations from a re-analysis of the deposited data

Results flagged for a closer look

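Peaks were also called on sequences outside chromosomes I, II and III, which no comparison used. On the sequence named MTR the laboratory lists together held 14 peaks and the Wilmar-P lists 6, with the highest enrichment 3.70 in Wilmar-P and 3.06 in the laboratory strain. On the unplaced sequence the laboratory lists together held 16 peaks and the Wilmar-P lists 2. The Wilmar-P peaks on the unplaced sequence were stronger, with enrichments of 19.0 and 15.4, against at most 5.14 and 3.25 in the laboratory lists. No list from an untagged strain was analysed here with which to compare them.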

How the results depend on the processing

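The number of Wilmar-P regions without a laboratory region was 454 and stayed between 414 and 572 under all alternatives, and the number of gained genes, 332, stayed between 226 and 375. Leaving out a replicate of either strain gave 433 to 526 regions, 310 to 375 gained, 145 to 166 kept and 20 to 32 lost genes. Of the 144 kept genes, 143 or 144 were kept again each time, and of the 23 lost ones 20 to 23 were lost again. Leaving out a list removes only the need for a second call. A kept gene could therefore hardly leave its class, and its return says little. In lists of the same number of peaks (961), 329 of the 342 gained genes were also gained in the full lists. That cut left 596 of the laboratory regions' 3485 in number and 830 against 851 in Wilmar-P. A gained gene could therefore hardly leave its class here either. With an enrichment of at least 2.5 the number of lost genes fell to 10, and 287 genes were gained, of which 250 were gained in the full lists. With 500 bp in place of 1000 bp upstream 92 genes were kept. With the nearest gene and coding summits included, 305 genes were kept and 1332 were lost, against 226 gained, because the laboratory-only coding summits then count. The difference in the share of coding summits kept its direction under every alternative, from 12.9 to 64.7 percentage points, and with 56.5 to 65.6 points without a replicate (exact permutation test, p = 0.33 each, the smallest possible). With the replicate number as a block it was 61.1 points (stratified exact permutation, p = 0.5, the smallest possible). The labels give the strains the same replicate numbers and no shared culture or day. Depth is unknown, so calls missing from a list cannot be told apart from calls below its threshold.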

Other observations

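Further lists were written after the gained genes had been seen, so their counts describe and support nothing. Over all genes 9.31% had a Wilmar-P promoter region, with 2.82% kept and 6.49% gained. Of 18 genes of the G1 to S transition that the MBF transcription factor controls, 9 had a Wilmar-P promoter region and 0 a kept one. They were cdc18, cdc22, cdt1, cdt2, cig2, ssb1, ctp1, tos4 and nrm1, and the cyclin gene cig2, with 8.32 and 7.79 in Wilmar-P, had a peak of 1.89 in 1 laboratory list. The nrm1 region was weak, with 1.87 and 2.27, and the ctp1 summit lay 872 bp upstream in replicate 1. The other 9 genes of the list, among them mik1, suc22 and rad21, had none by the rule. The ssb1 region (chromosome II, 221180 to 221505) nevertheless covers the start of mik1 at 221298. Its summit at 221353 lay downstream of that start, so mik1 does not count. Of 13 genes of sulfur and methionine metabolism 1 was kept (sul1) and 4 were gained, among them met17, of homocysteine synthase, with 14.8 and 11.0 and 2.39 in 1 laboratory list, and sua1, of sulfate adenylyltransferase, with 9.53 and 7.45. Of 22 ergosterol genes erg1 and erg11 were kept, and erg10, erg25 and erg31 were gained with 3.90 to 7.72.

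At the ends of chromosome III both strains had regions over the ribosomal RNA genes, and 8 of the shared regions there had their summit in such a gene. Wilmar-P had regions at the centromere of chromosome III too, among them 3 without a laboratory peak, with enrichments of 3.51 to 4.72.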
